A study of Mus musculus with 14 samples.

Results

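The genes described here are the 3 hormones of the pancreatic polypeptide family, Ppy, Pyy and Npy, and Fxyd6 and Tmem158, 2 genes used as markers of the PP cell, the islet cell that makes pancreatic polypeptide. They were chosen by symbol, 5 of the 52459 genes of the count table, and all 5 had enough reads to be tested. Islets of male mice of the inbred strain C57BL/6J, aged 7 months, were dispersed, and a cell sorter divided their cells by beta-galactosidase activity at acidic pH, an enzyme activity widely used as a marker of senescent cells. RNA was sequenced from 7 libraries of cells with that activity (positive) and 7 of cells without it (negative), and the labels number each group 1 to 7. No treatment and no genetic change is named for either group, and the labels do not say how many animals each library holds or whether equal numbers mark the same animals.

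Pancreatic polypeptide, peptide YY and neuropeptide Y are short hormones that are cut from longer precursors, amidated at their last residue and bound by a shared set of G protein-coupled receptors. Pancreatic polypeptide is secreted after meals and lowers pancreatic secretion and food intake. Peptide YY is best known from the gut but is also made in islets, and neuropeptide Y is a transmitter of sympathetic nerves that beta cells can also make, above all early in life. Fxyd6 encodes a small membrane protein that modulates the sodium pump, and Tmem158 encodes a membrane protein also known as Ras-induced senescence protein 1.

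The stretch of each messenger RNA that encodes the mature hormone is shown because the 3 genes are relatives and short reads could be shared between them. Each sequence is from GENCODE M21 transcripts on GRCm38, runs 5′ to 3′ over the 36 codons of the hormone, and ends in capitals with the codons of the amidation and cleavage signal that follows it.
Ppy: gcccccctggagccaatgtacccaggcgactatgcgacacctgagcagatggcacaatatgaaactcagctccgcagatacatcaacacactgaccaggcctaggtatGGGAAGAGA
Pyy: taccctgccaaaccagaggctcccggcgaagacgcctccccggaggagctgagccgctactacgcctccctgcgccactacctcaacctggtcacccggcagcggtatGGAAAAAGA
Npy: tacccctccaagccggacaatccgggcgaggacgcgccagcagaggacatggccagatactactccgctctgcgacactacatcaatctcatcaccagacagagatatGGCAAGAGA
Over these 108 bases Ppy and Pyy had 53.7% of bases in common, Ppy and Npy 56.5%, and Pyy and Npy 70.4%. Across all annotated transcripts of these genes, the longest run shared exactly was 10 bases between Ppy and Pyy, 9 between Ppy and Npy and 10 between Pyy and Npy. The reads were 50 bases long, so no read could match 2 of the 3 hormones without mismatches.

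Ppy (ENSMUSG00000017316.13, chromosome 11, 102099930 to 102101319, GRCm38) and Pyy (ENSMUSG00000017311.15, chromosome 11, 102106676 to 102107832) lie on the minus strand as direct neighbours, 5356 bases apart with 0 annotated genes between them. Npy (ENSMUSG00000029819.6) lies on chromosome 6, 49822710 to 49829507, on the plus strand. Fxyd6 (ENSMUSG00000066705.7, chromosome 9, 45370185 to 45396159, plus strand) is followed 3509 bases on by its relative Fxyd2, and Tmem158 (ENSMUSG00000054871.5) is on the minus strand of the same chromosome, 123259053 to 123260764. None of the 5 overlaps another gene of this annotation on either strand. Ppy and Pyy varied together across libraries, as they also did with genes on other chromosomes (below). The 250 bases before the start of Ppy and of Pyy are shown, with the letters TATAA in capitals. They are from RefSeq on GRCm38.p6, chr11:102101320-102101569 and chr11:102107833-102108082, both minus strand and 5′ to 3′.
Ppy: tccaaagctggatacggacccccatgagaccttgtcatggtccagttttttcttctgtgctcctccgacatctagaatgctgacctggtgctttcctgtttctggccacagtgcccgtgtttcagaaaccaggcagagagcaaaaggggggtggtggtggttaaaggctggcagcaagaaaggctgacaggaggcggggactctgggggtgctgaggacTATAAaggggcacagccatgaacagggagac
Pyy: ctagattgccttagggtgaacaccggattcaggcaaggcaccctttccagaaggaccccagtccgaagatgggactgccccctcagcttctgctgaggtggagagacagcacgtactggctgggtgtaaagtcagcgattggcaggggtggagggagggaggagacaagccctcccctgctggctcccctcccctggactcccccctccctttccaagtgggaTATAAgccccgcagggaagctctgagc
The letters TATAA stood on the gene's strand 31 to 27 bases before the start of Ppy and 27 to 23 bases before that of Pyy. Of 32851 windows of the same length before mouse gene starts, 22.8% held TATAA on either strand and 3.38% held it on the gene's strand between 20 and 40 bases before the start. The letters TAAT, which can overlap with TATAA and were held by 54.9% of windows on either strand, were in neither sequence, and CANNTG (66.2% of windows) stood once, 36 to 31 bases before the start of Pyy. These matches describe letters and not binding.

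Per length of exon, Ppy was the highest of the 5 genes and Tmem158 the lowest. Means over all 14 libraries were 3294 CPM (read counts scaled to library size) per kilobase of exon for Ppy, 1433 for Pyy, 26.1 for Fxyd6, 1.58 for Npy and 0.683 for Tmem158. Ppy was above Pyy in 14 of 14 libraries, by 1.74 to 3.06 times, and Pyy was above Fxyd6 and Fxyd6 above Npy in 14 of 14. The order of Npy and Tmem158 held in 13 of 14 libraries, their ranges overlapped (0.596 to 3.20 and 0.363 to 0.959 CPM per kilobase), and it rested on 5 to 35 reads of Npy and 7 to 38 of Tmem158 per library. By CPM, Ppy had a median rank of 26.5 among all genes (11 at best, 116 at worst) and Pyy one of 63.5. Total counts were 11060144 to 23045934 in negative and 15585779 to 24577025 in positive libraries.

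Pyy followed Ppy closely from library to library, whereas Fxyd6 and Tmem158 gave no relation with Ppy that passed adjustment within either group (below). Ppy spanned 5.17-fold and Pyy 7.13-fold between the lowest and the highest of the 14 libraries, whereas Fxyd6 spanned 1.46-fold. The correlation with Ppy of deviations from the group means over the 14 libraries was 0.94 for Pyy, 0.08 for Fxyd6, −0.43 for Tmem158 and 0.20 for Npy, as a description, since all genes share the libraries and their scaling. The value of Fxyd6 pools r of opposite sign, −0.34 in negative and 0.55 in positive libraries. Listed genes on other chromosomes followed Pyy nearly as closely as Ppy did, among them Rbp4 (0.93) and Gcg (0.91). With Ppy these 2 gave 0.91 and 0.80.

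**Figure D1:**
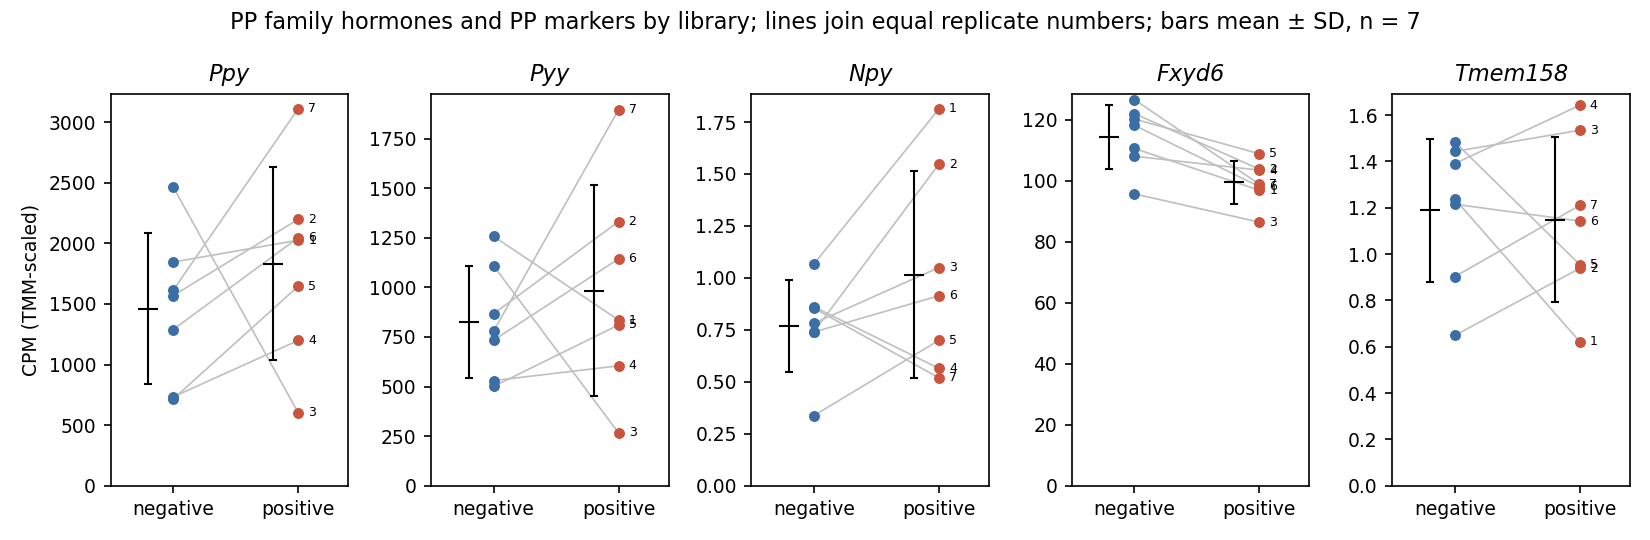
Level of each gene (CPM, vertical axis from 0) in the 7 negative and 7 positive libraries, with lines joining libraries of equal number, digits giving that number, and bars showing mean ± SD. The groups overlap for all 5 genes; Ppy and Pyy of library 3 run against most other lines, and all 7 lines of Fxyd6 point down.

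Neither Ppy nor Pyy was called different between the groups. Ppy was at 715 CPM at the lowest, 1569 at the median and 2466 at the highest in negative libraries and at 602, 2026 and 3112 in positive ones. The highest and the lowest of the 14 libraries were both positive, so all negative values lay within the positive range. The mean was 1461 ± 620 CPM in negative and 1833 ± 796 CPM in positive libraries (± SD over 7 libraries throughout). The log2 fold change, positive over negative, was 0.33 ± 0.34 (± SE throughout; 95% interval −0.40 to 1.05), with a Benjamini-Hochberg adjusted p = 0.633 from the quasi-likelihood F-test of edgeR. Of all 16350 genes tested, 8.03% were called at an adjusted p below 0.05 by edgeR (6.4% higher and 1.63% lower in positive cells). Of these 5 genes 0 were called, 1 of them, Fxyd6, had an unadjusted p below 0.05, and DESeq2 called that 1. Pyy was at 500, 779 and 1257 CPM (lowest, median, highest) in negative and at 266, 835 and 1896 in positive libraries. Its means were 825 ± 280 and 984 ± 531 CPM, a log2 fold change of 0.25 ± 0.35 (95% interval −0.49 to 1.00, adjusted p = 0.734). With intervals this wide, a difference of the size seen was not detectable. In bulk samples, fewer cells of a type and less RNA per cell cannot be told apart.

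Within pairs of equal number, Ppy was higher in the positive library of 6 of 7 pairs and Pyy in 5 of 7. The increase of Ppy in those 6 ranged from 0.13 to 1.20 on the log2 scale, and the difference in pair 3 was −2.04. The difference in Pyy was −2.06 in pair 3 and −0.59 in pair 1, and the other 5 differences were 0.19 to 1.28. With the number as a block, where 19.6% of all genes were called (11.8% higher, 7.77% lower) and 1 of these 5, Fxyd6, the log2 fold change of Ppy was 0.36 (adjusted p = 0.577) and that of Pyy 0.15 (adjusted p = 0.836). Without pair 3 the blocked fit, chosen after the data were seen, gave 0.68 for Ppy (adjusted p = 0.00415, in a fit that called 12.9% of genes higher) and 0.46 for Pyy (adjusted p = 0.231). In the blocked fit, pair 3 thus decided whether Ppy was called. In that pair negative 3 had the highest Ppy of its group and a sum of 1440 CPM over 10 markers of pericytes and fibroblasts, against 15.6 to 70.8 in the other negative libraries. Positive 3 had the lowest Ppy, Pyy, Gcg and Sst of its group. Its sum over the same markers was also the highest of its group, at 244 CPM against 48.8 to 139.5 in the other positive libraries. The part of these features in the result was not tested.

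**Figure D2:**
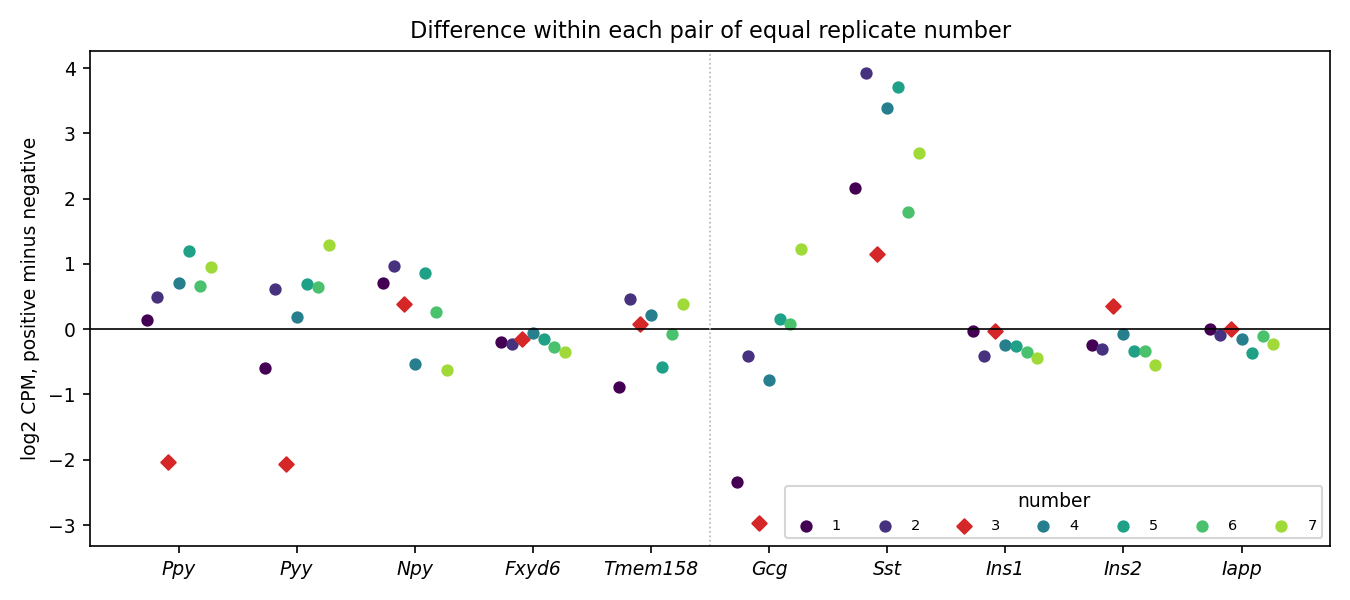
Difference in log2 CPM, positive minus negative (vertical axis), within each pair of equal number for the 5 genes (left of the dotted line) and other islet hormones; each point is 1 pair and the red diamond is pair 3. Ppy lies above 0 in 6 of 7 pairs, Fxyd6 and Ins1 below 0 in 7 of 7 and Sst above 0 in 7 of 7.

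Set against 7 islet hormones of the same library, neither Ppy nor Pyy was called different. Over a second sum, of Gcg, Sst and Ppy only and mostly of Gcg, both stood higher in positive cells. That call came from a test without the pairs, and neither ratio was called when pairs were kept. Per 1000 reads of 7 islet hormones (Ins1, Ins2, Iapp, Gcg, Sst, Ppy and Pyy), Ppy took 9.61 ± 4.73 in negative and 13.8 ± 5.88 in positive libraries (exact two-sided permutation p = 0.172, adjusted p = 0.259 over 3 ratios). Without positive 3 that p was 0.0408. Pyy took 5.37 ± 1.88 and 7.41 ± 3.93 per 1000 (exact permutation p = 0.392, adjusted p = 0.392). Per 1000 reads of Gcg (glucagon), Sst (somatostatin) and Ppy, the share of Ppy was 77.6 ± 23.8 in negative and 137 ± 49.6 in positive libraries, higher in 6 of 7 pairs (exact permutation p = 0.00408, adjusted p = 0.0102 over 5 ratios). Reads of Pyy per 1000 of the same sum were 33.4 to 59.3 in negative and 60.2 to 100.1 in positive libraries, so the groups did not overlap, and Pyy was higher in 7 of 7 pairs (exact permutation p = 0.000583, the smallest that 7 against 7 can give; adjusted p = 0.00291). With the pairs kept, exact sign-flip tests gave p = 0.0312 for Ppy and 0.0156, the smallest that 7 pairs can give, for Pyy. Adjusted over the same 5 ratios, an adjustment added after the values were seen, both became 0.0781, so neither ratio was called with the pairs kept. A single ratio at the smallest p that 7 pairs can give does not pass this adjustment. The lost call therefore cannot tell whether keeping the pairs weakened the difference. With any 1 library left out, a check added after these values were seen, p stayed between 0.000583 and 0.00874 for Ppy and between 0.000583 and 0.00117 for Pyy. Most reads of that sum were of Gcg, at 2138170 over the negative and 1591820 over the positive libraries. Sst had 24074 and 142431, and Ppy 181251 and 239971. These ratios thus mostly carry the level of Gcg, 17638 ± 7414 and 12225 ± 8042 CPM (log2 fold change −0.53 ± 0.42, adjusted p = 0.516). Sst, a smaller part, rose from 181 ± 127.6 to 1088 ± 578 CPM (2.58 ± 0.51, adjusted p = 0.00562), and a rise in Sst lowers these ratios. The ratio of Pyy to Ppy itself was not called different, at 59.4 ± 10.9 reads of Pyy per 100 of Ppy in negative and 51.8 ± 7.70 in positive libraries (exact permutation p = 0.168, adjusted p = 0.259).

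Within each group Ppy and Pyy moved together from library to library. In the 7 negative libraries Pearson's r of log2 CPM was 0.94 (exact permutation p = 0.00536, adjusted p = 0.0286 over 16 relations; Spearman's rho 0.93, adjusted p = 0.036), and 0.98 without the 2 libraries farthest from the median of Pyy. In the 7 positive libraries r was 0.98 (exact permutation p = 0.000198, adjusted p = 0.00159; rho 1.0, adjusted p = 0.00317), and 0.89 without the 2 farthest. Sst followed Ppy as closely in positive libraries (r = 0.98, exact permutation p = 0.000198, adjusted p = 0.00159; rho 1.0, adjusted p = 0.00317; 0.89 without the 2 farthest). In negative libraries Sst gave r = 0.54 with Ppy (exact permutation p = 0.223, adjusted p = 0.325; rho 0.5, adjusted p = 0.474), and the difference between the groups was not tested. Gcg gave r = 0.85 with Ppy in positive libraries (exact permutation p = 0.0123, adjusted p = 0.0492; rho 0.89, adjusted p = 0.0492), which was 0.41 without the 2 farthest libraries and so rests on them. In negative libraries it gave r = 0.75 (exact permutation p = 0.0663, adjusted p = 0.177; rho 0.75, adjusted p = 0.151). Ppy gave no relation that passed adjustment with Fxyd6 (r = −0.34 in negative and 0.55 in positive libraries, adjusted p = 0.617 and 0.325 by exact permutation) or Tmem158 (−0.30 and −0.54, adjusted p = 0.657 and 0.325), nor with Npy (0.57 and −0.02, adjusted p = 0.325 and 0.963). The mean log2 levels of macrophage and of endothelial markers gave r = 0.60 and 0.76 with Ppy in positive libraries (adjusted p = 0.297 and 0.0978 by exact permutation) and 0.03 and 0.13 in negative ones. The spread of Ppy around its group means, an SD of 0.72 in log2 CPM, exceeded that of 96.2% of the 52 genes within 1 log2 unit of its level, whose median was 0.22.

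**Figure D3:**
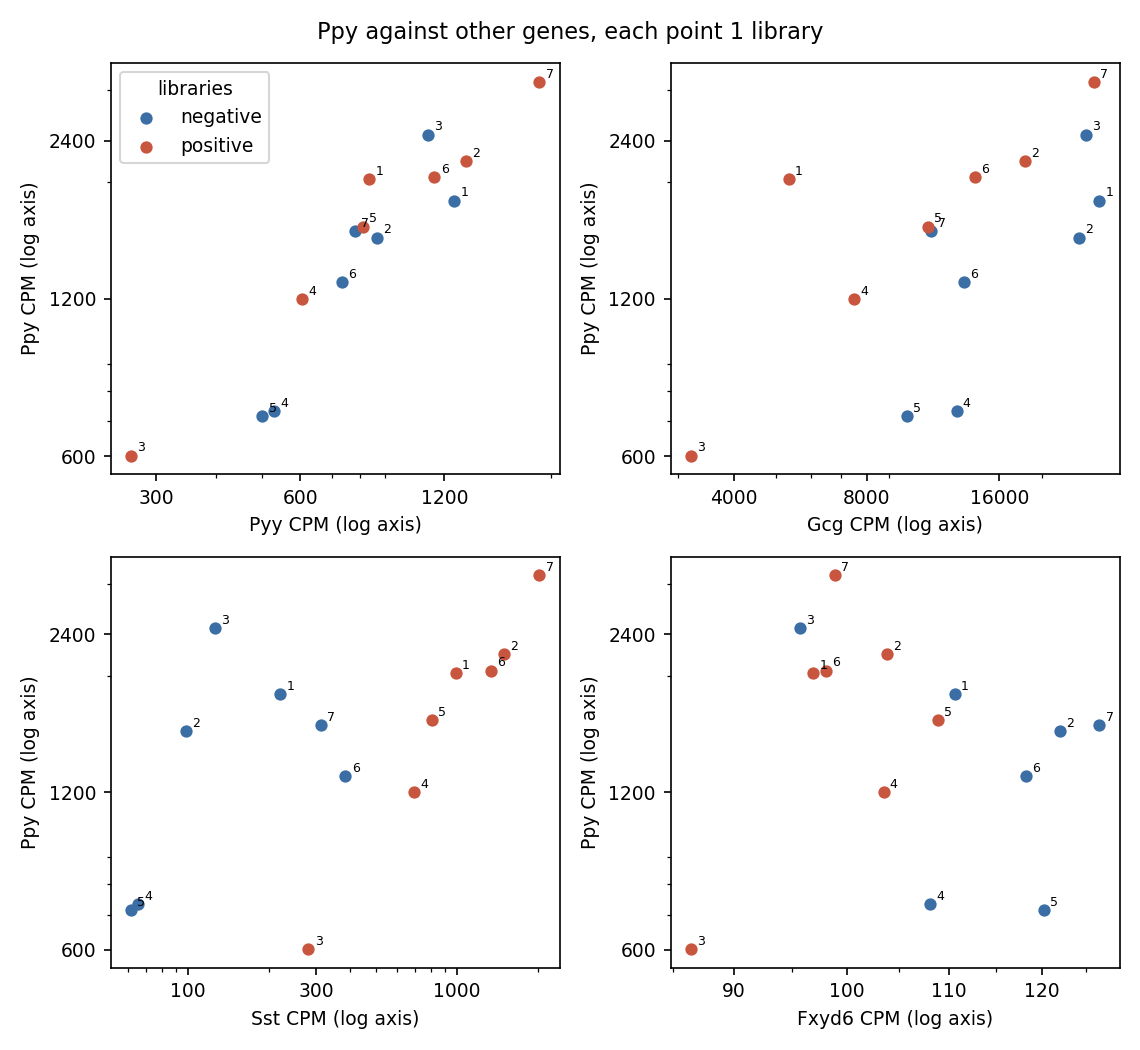
Ppy (CPM, log axis) against Pyy, Gcg, Sst and Fxyd6 (CPM, log axes), each point 1 library with its number, blue negative and red positive. Pyy rises with Ppy in both groups, Sst lies higher in positive libraries and rises with Ppy among them, and Fxyd6 changes little while Ppy spans 5.17-fold.

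Among 10537 genes with an average log2 CPM of at least 3, the 5 whose deviations from the group means were most like those of Ppy over the 14 libraries were Pyy (r = 0.94), Arg1 (0.92), Gpld1 (0.92), Sorcs2 (0.91) and Hk1 (0.91). Of these, Hk1, a hexokinase, rose from 8.64 ± 3.38 to 25.2 ± 12.6 CPM (log2 fold change 1.54 ± 0.35, adjusted p = 0.014; 0.207 without the 4 libraries numbered 6 and 7), and the other 4 were not called (adjusted p = 0.341 to 0.836). Arg1, an arginase, was at 6.98 ± 2.51 and 9.57 ± 4.19 CPM and Sorcs2, a sorting receptor, at 10.2 ± 3.90 and 11.4 ± 5.30 CPM.

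Npy was barely present. It had 96 reads over the 7 negative and 141 over the 7 positive libraries, at 0.34, 0.78 and 1.07 CPM (lowest, median, highest) in negative and 0.52, 0.91 and 1.81 CPM in positive libraries. The 2 highest values were those of positive 1 and 2, and the other 5 positive libraries lay within the range of the negative ones. The log2 fold change was 0.39 ± 0.30 (95% interval −0.24 to 1.03, adjusted p = 0.499), higher in 5 of 7 pairs. Of 7 markers of sympathetic neurons, which make neuropeptide Y, 3 were tested. Prph, an intermediate filament of peripheral neurons, rose from 0.342 ± 0.255 to 1.66 ± 1.496 CPM (2.24 ± 0.58, adjusted p = 0.0257; 0.0567 without negative 6, 0.0525 with no filter and 0.12 without the libraries numbered 6 and 7), while Th (0.51, adjusted p = 0.118) and Nefm (0.01, adjusted p = 0.984) were not called. Prph was highest in positive 1 and 2, at 4.92 and 1.83 CPM, the same libraries that held the most Npy. Over the 14 libraries the deviations of Npy from its group means correlated at 0.64 with those of Prph and 0.09 with those of Th. For the 10 beta cell genes these values ran from −0.22 (Slc30a8) to 0.65 (Nkx6-1). The part of neurons or of beta cells in the level of Npy was not tested. The defining enzyme of noradrenaline synthesis, Dbh, had 0 reads in all 14 libraries, and Phox2a, a factor that specifies these neurons, had 24. The genes most like Npy by the same measure were Gm26825 (r = 0.84), Elmod3 (0.83), Cog4 (0.82), Obsl1 (0.80) and Htatip2 (0.79), and none of these 5 was called (adjusted p = 0.185 to 0.887).

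Receptors of the family were close to absent from the sorted cells. Npy1r, the receptor of neuropeptide Y and peptide YY known from beta cells, had 6 reads over all 14 libraries, and Npy4r, the receptor of pancreatic polypeptide, had 2. Npy2r, Npy5r and Npy6r had 0 reads, which allows a level of up to 0.0117 CPM over all libraries (3 counts, counting error only). None of the 5 receptors had enough reads for a test, so a difference between the groups was not detectable at this depth.

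The enzymes that make and trim these hormones gave 1 call. Of 9 processing and breakdown genes 7 were tested and 1 was called, against 8.03% of all genes (1.63% lower), and 1 of 7 is near the first share. The gene was Pcsk1n, an inhibitor of the convertase PC1, which fell from 624 ± 59.4 to 500 ± 65.9 CPM (log2 fold change −0.32 ± 0.09, adjusted p = 0.0304, lower in 7 of 7 pairs). That call was lost without positive 3 (0.0604), without positive 6 (0.0566) and without the 4 libraries numbered 6 and 7 (0.185). The convertases Pcsk1 (−0.12, adjusted p = 0.484) and Pcsk2 (−0.11, adjusted p = 0.452), carboxypeptidase Cpe (−0.08, adjusted p = 0.432) and Pam, the amidating enzyme (0.22, adjusted p = 0.381), were not called. Dpp4, the peptidase that removes the first residues of peptide YY and neuropeptide Y, was at 90.1 ± 8.74 and 92.7 ± 16.9 CPM (0.04 ± 0.10, adjusted p = 0.86). Over the 14 libraries its deviations from the group means ran opposite to those of Ppy (r = −0.83) and Pyy (−0.86), and those of Pam ran with them (0.76 and 0.81), as a description of these libraries. The median log2 fold change of the 7 tested was −0.10, against 0.00037 over all genes. The annotated span of Pcsk1n overlaps Eras, that of Fxyd3 overlaps Lgi4 and that of Atp1b1 overlaps Nme7, and how reads in such overlaps were assigned is not given in the sources used here.

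Fxyd6 was slightly lower in positive than in negative cells, a difference that was called when libraries of equal number were paired but not otherwise by edgeR with all 14 libraries. It was at 95.7, 118 and 127 CPM (lowest, median, highest) in negative and 86.4, 98.9 and 109 CPM in positive libraries. The groups overlapped, but within pairs Fxyd6 was lower in the positive library in 7 of 7, by 0.06 to 0.36 on the log2 scale. The mean was 114 ± 10.5 CPM in negative and 99.5 ± 7.09 CPM in positive libraries, and the log2 fold change was −0.20 ± 0.07 (95% interval −0.34 to −0.06). This was not called without the block (adjusted p = 0.0783) and was called with it (adjusted p = 0.00689, where 7.77% of all genes were called lower). The blocked call held without each of the 7 pairs in turn (adjusted p = 0.00412 to 0.0252). DESeq2 without the block also called it (adjusted p = 0.0343, in a fit that called 2.04% of genes lower), as did edgeR without negative 3 (0.0109, 3.71% lower) or without positive 5 (0.0381, 2.2% lower), but without the 4 libraries numbered 6 and 7 the adjusted p was 0.514. Markers of other cells moved in the same libraries. Of 10 macrophage markers 10 rose (6.4% of all genes were called higher), or 9 with the block, where C1qa, a complement gene, had an adjusted p = 0.087, with sums of 17.9 to 24.8 CPM in negative and 78.9 to 659 CPM in positive libraries. Of 10 endothelial markers 10 rose, with sums of 4.45 to 62.4 and 347 to 1189 CPM. Of 11 acinar markers 4 fell, against 1.63% of all genes called lower, and 9 with the block, against 7.77%. Without negative 1, positive 6 or positive 7 there were 2 acinar calls, and 0 without the libraries numbered 6 and 7. Acinar sums were 130 to 1329 CPM in negative and 29.4 to 842 CPM in positive libraries. In each group the libraries numbered 6 and 7 had the highest macrophage and endothelial sums. Macrophage sums were 659 and 456 CPM in positive 6 and 7, and endothelial sums 62.4 and 57.4 CPM in negative 6 and 7. Deviations of Fxyd6 over the 14 libraries correlated with those of tested pericyte and fibroblast markers at −0.80 (Col3a1) to 0.07 (Abcc9), and with Ins1 at 0.62. Negative 3, with 1440 CPM of those markers, had the lowest Fxyd6 of its group. The part of all these cells in the lower Fxyd6 was not tested.

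Of the 7 genes of the FXYD family 3 were tested. Fxyd5, also called dysadherin, rose from 1.47 ± 1.21 to 10.3 ± 6.30 CPM (log2 fold change 2.77 ± 0.49, adjusted p = 0.00197, higher in 7 of 7 pairs). Fxyd3 was at 4.44 ± 0.71 and 3.32 ± 0.955 CPM (−0.43 ± 0.18, adjusted p = 0.191). Fxyd1, Fxyd2, Fxyd4 and Fxyd7 had 30, 54, 27 and 16 reads over all libraries, too few for a test. Per kilobase of exon, Fxyd6 at 27.9 CPM in negative and 24.2 in positive libraries stood above Fxyd5 (0.35 and 2.45) and Fxyd3 (0.915 and 0.684). Of 6 subunits of the sodium pump, on which these proteins act, 3 were called higher and 0 lower, against 6.4% and 1.63% of all genes. With the block 4 were called higher and 0 lower, against 11.8% and 7.77% of all genes. Among the 3, Atp1b1 rose by 0.20 (adjusted p = 0.0467), a call that did not hold with any 1 library left out (0.0603 to 0.123), with RLE scaling (0.0552) or with no filter (0.173).

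Tmem158 was not called different between the groups. With 145 reads over the negative and 158 over the positive libraries, it was at 0.65, 1.24 and 1.48 CPM (lowest, median, highest) in negative and at 0.62, 1.14 and 1.64 CPM in positive libraries. The ranges nearly coincide, and Tmem158 was higher in 4 of 7 pairs. The log2 fold change was −0.05 ± 0.23 (95% interval −0.53 to 0.43, adjusted p = 0.931). Tmem158 was first described as raised by active Ras, so genes that respond to the Ras to ERK signalling pathway were counted beside it. Of 14 tested 4 rose and 0 fell, where 6.4% of all genes were called higher and 1.63% lower. With the block 6 were called higher and 2 lower, against 11.8% and 7.77% of all genes, and the 2 lower are near that share. The 4 were the phosphatase Dusp6, which rose from 11.1 ± 2.24 to 23.2 ± 5.67 CPM (1.07 ± 0.16, adjusted p = 0.000372), Ier3 (1.53 ± 0.22, adjusted p = 0.000345), and the pathway inhibitors Spred1 (1.39 ± 0.23, adjusted p = 0.00103) and Spry1 (1.75 ± 0.46, adjusted p = 0.0278). The call of Spry1 did not hold when negative 4, 6 or 7 or else positive 2, 6 or 7 was left out (0.0538 to 0.069) or with no filter (0.0671), and its log2 fold change was 1.15 (adjusted p = 0.389) without the libraries numbered 6 and 7. The list's median log2 fold change was 0.19 and 10 of its genes were not called, among them Etv5 (0.08), Spry4 (0.05) and Dusp4 (0.11). These genes are also expressed by macrophages and endothelial cells, whose markers rose as given above, and the part of such cells was not tested.

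Other genes reported from PP cells gave no common direction. Of 8 on the list 6 were tested and 0 were called (median log2 fold change 0.02), with the smallest adjusted p for Id2, at 28.5 ± 8.47 and 42.6 ± 11.3 CPM (0.58 ± 0.19, adjusted p = 0.0778). It was called by DESeq2 (0.0285), without negative 3 (0.00744) and without positive 1 (0.0474). With the block Id2 was called higher (adjusted p = 0.0119) and Isl1 and Meis2, both transcription factors, lower (adjusted p = 0.00561 and 0.0491), where 11.8% of all genes were called higher and 7.77% lower. Etv1, a transcription factor reported from PP cells, had deviations that followed those of Ppy (r = 0.86) and Pyy (0.89) and a log2 fold change of −0.17 (adjusted p = 0.78). The other tested genes of this list followed Ppy less, from 0.07 (Slitrk6) to 0.66 (Thsd7a). The 8 alpha cell markers gave 0.62 (Irx2) to 0.81 (Gc) with Ppy, so following Ppy was not particular to genes of PP cells. Aqp3 had 16 reads and Ceacam10 92 over all libraries and were not tested. Peptides of gut endocrine cells, which also make peptide YY, were near absent, with 1 read of Gip, 24 of Sct, 38 of Cck, 43 of Nts and 45 of Gast, and Tac1, the substance P precursor, averaging 0.775 ± 0.373 CPM in negative libraries and 1.34 ± 0.713 in positive ones (0.77, adjusted p = 0.223; the block brought that p to 0.0455).

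**Figure D4:**
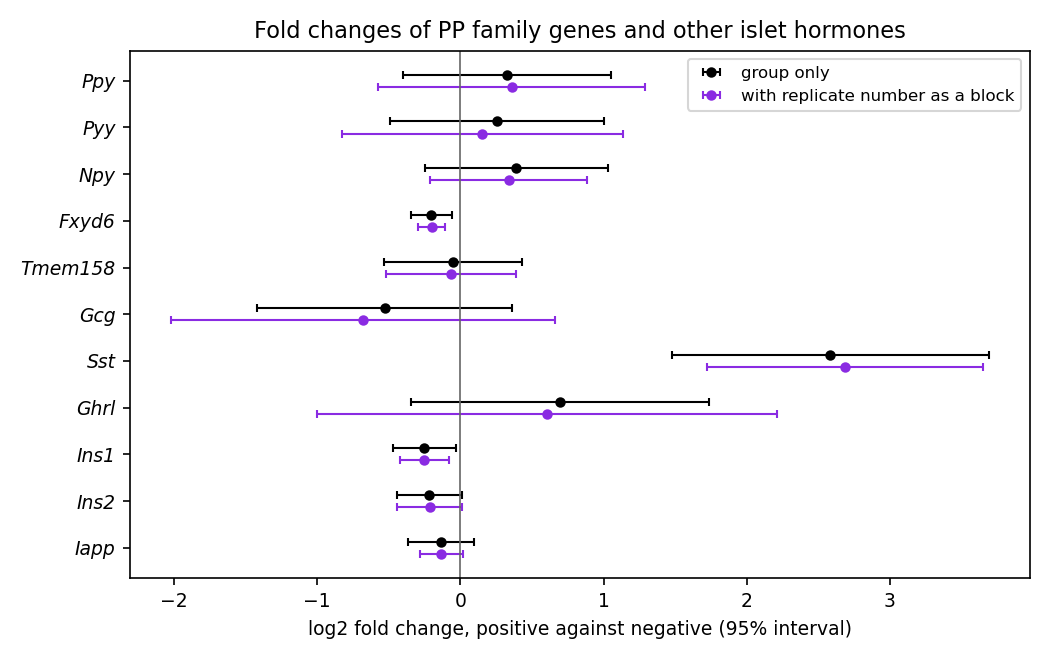
Log2 fold change of positive against negative cells (horizontal axis, bars 95% interval) for the 5 genes and 6 other islet hormones, in black with group as the only term and in purple with the replicate number as a block. Intervals of Ppy, Pyy, Npy and Tmem158 span 0 in both fits, those of Fxyd6 and Ins1 lie below 0, and Sst stands apart at 2.58.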

How the data were processed

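Values deposited by the authors were whole-number counts of reads for each gene. Per the submitters' processing notes, the authors placed reads on GRCm38 with Subread and counted them with featureCounts; versions, annotation, strand setting and treatment of reads matching several genes are not given in the sources used here. Per the labels' protocols, polyadenylated RNA was made into strand-marking libraries. Columns were matched to samples by the names in the labels. The 5 genes and all gene lists were chosen with earlier results of these data known. Besides the 5 genes and the hormones of each islet cell type, the rule named up to 6 called genes per list and the 5 genes most like Ppy or Npy.

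Groups were compared with edgeR 4.0.16 (R 4.3.3) on 16350 genes kept by filterByExpr, with TMM scaling (0.969 to 1.03), robust dispersions and the quasi-likelihood F-test with group as the only term. Tests are two-sided, adjusted over all genes tested and called below 0.05. SE and 95% intervals came from the F statistic. CPM use TMM-scaled library sizes, and log2 CPM a prior count of 2. Ratios and relations were tested by exact permutation of libraries. Lists were counted without a set test, and some of their genes are not reported here. No 2 libraries of a group agreed within sampling noise (lowest chi-square per degree of freedom 5.36). The labels do not name an animal for any library, so each p-value reflects only how far these libraries differ, which may be technical.

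Deviations from group means of libraries with equal numbers correlated with 0.203 to 0.541 in all 7 pairs (median −0.125 for different numbers). The numbers in the titles were therefore taken as pairs in the fits with the block and in the sign-flip tests. The main fit and the permutation tests did not use the pairs, and the labels do not say what a number marks. On simulated counts for 7 against 7 libraries and 16512 genes, 56% of 1.5-fold and 99% of 2-fold changes were recovered. Every gene was simulated with the same coefficient of variation, 0.198, and changed genes were drawn above a minimum mean count, which Npy does not reach. Ppy and Pyy spread far more, with SDs of 0.72 and 0.74 in log2 CPM against medians of 0.22 and 0.16 at like level. These shares therefore do not carry over to Ppy, Pyy or Npy. Alternatives were the block, RLE scaling, DESeq2 1.42.0, no filter, and libraries left out. Exon lengths and positions came from GENCODE M21, promoters from RefSeq, both on GRCm38. Floors for counts of 0 cover counting error only.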

Additional observations from a re-analysis of the deposited data

Results flagged for a closer look

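Reads of Ppy per 1000 reads of the 7 islet hormones were 18.85 in negative 3, far above the other 6 negative libraries, which lay between 4.88 and 10.8. Of 16 groups of values checked in this way this was the 1 that stood apart, and chance gives about 1 in 20. It bears on the comparison of that ratio, whose log2 difference was 0.53 with all libraries and 0.71 without negative 3 (exact permutation p = 0.0694).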

How the results depend on the processing

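Calls over all genes numbered 1313, 3200 with the replicate number as a block, 2064 with DESeq2, 581 without the 4 libraries numbered 6 and 7, and 965 to 1883 with 1 library left out. The share of calls that were higher in positive cells was 79.7%, 60.3% with the block and 92.3% without those 4 libraries. Fxyd6 (log2 fold change −0.20) was called with the block (−0.20, adjusted p = 0.00689), with DESeq2 (−0.21) and, among single libraries left out (−0.26 to −0.17), without negative 3 or positive 5. With the block and each pair left out in turn it ranged from −0.23 to −0.17, with the call kept in 7 of 7. Ppy kept its direction under the alternatives run, from 0.13 to 0.48 with 1 library left out and from 0.21 to 0.68 with the block and 1 pair left out, and was called only without pair 3 (0.68). Pyy turned to −0.15 without the libraries numbered 6 and 7, ranged from −0.0068 to 0.42 with 1 library left out, and from −0.044 to 0.46 with the block and 1 pair left out. Tmem158 ranged from −0.16 to 0.043 and, with the block and 1 pair left out, from −0.15 to 0.079 (0.023 without pair 5). Npy ranged from 0.18 to 0.50. None of Ppy, Pyy, Npy and Tmem158 was called with the block, RLE scaling, DESeq2 or no filter.

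The log2 difference in Ppy per hormone reads was 0.53, 0.81 over Gcg, Sst and Ppy only, and 0.38 to 0.75 with 1 library left out. That of Pyy was 0.34, 0.61 over Gcg, Sst and Ppy, −0.0029 without the libraries numbered 6 and 7, and 0.14 to 0.60 with 1 left out. The ratio of Pyy to Ppy ranged from −0.25 to −0.14. With pairs kept together, sign-flip tests of the first 3 ratios gave exact p = 0.266, 0.484 and 0.203, and 0.0312 and 0.0156 for Ppy and Pyy over Gcg, Sst and Ppy (both 0.0781 after adjustment). Among other genes that were not called in the main fit, Dcn turned to 0.37 with the block and to 1.65 with DESeq2, which called it (adjusted p = 0.00149). The log2 fold change turned without the libraries numbered 6 and 7 for Thsd7a to −0.043, Nefm to −0.084, Muc1 to 0.028, Sorcs2 to −0.18 and Obsl1 to 0.027, and with no filter for Nefm to −0.012 and Cog4 to −0.0025. With 1 library left out it crossed 0 for Dpp4 from −0.015 to 0.087, Thsd7a from −0.15 to 0.38, Nefm from −0.12 to 0.26, Col1a1 from −3.36 to 0.63, Col1a2 from −2.57 to 0.73, Col3a1 from −3.33 to 0.80, Dcn from −1.15 to 1.84, Atp1b2 from −0.084 to 0.12, Dusp4 from −0.048 to 0.16, Spry4 from −0.076 to 0.15, Spred2 from −0.063 to 0.13, Etv5 from −0.075 to 0.14, Sorcs2 from −0.042 to 0.32, Cog4 from −0.016 to 0.036. Dcn and the collagen genes turned without negative 3, where edgeR called Dcn higher (adjusted p = 0.00394). The causes of these shifts were not tested. Depth limits Npy, Tmem158 and the receptors, whose reads per library did not exceed 38.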

Other observations

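Hormones and markers of the other islet cells differed in how far they moved. Of 3 delta cell markers tested, 2 rose, against 6.4% of all genes called higher, Sst, given above, and Hhex, the transcription factor of delta cells, from 1.16 ± 0.788 CPM in negative to 6.80 ± 3.34 CPM in positive libraries (± SD over 7; edgeR log2 fold change 2.50 ± 0.45, with an adjusted p = 0.00202 and 7 of 7 pairs higher). Of 8 alpha cell markers 0 were called (median log2 fold change −0.42; 0 with the block). Of 10 beta cell genes 0 were called and 5 were called lower with the block, where 7.77% of all genes were called lower (median −0.25). Ghrl, the ghrelin gene, was at 2.11 ± 1.398 and 3.42 ± 2.45 CPM (0.70 ± 0.49, adjusted p = 0.452).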
